A study of Mus musculus with 9 samples.

Results

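The 35 genes described here mark the non-neuronal epithelium of the nose and were followed through sequencing libraries of sorted olfactory neurons. They were chosen by name as markers of supporting cells, Bowman's glands and respiratory epithelium, and 35 of 35 are listed among the 55291 genes of the deposited tables. Polyadenylated RNA was sequenced from cells labelled mature olfactory sensory neuron, which were gated on a bright reporter signal and weak DAPI staining after the mouse main olfactory epithelium had been dissociated with papain. The 3 groups are named for the tagged receptor allele: Olfr73-IRES-GFP, Olfr1507-IRES-GFP and Olfr160-IRES-mCherry, with 3 libraries each and 9 in all. The series' own description speaks of duplicates, whereas 3 libraries per group are labelled as replicates and used here. In each allele the reporter follows the receptor's own transcript, so fluorescence is meant to mark cells that use that allele. The sources used here do not give the age, sex or strain of the mice, nor whether animals were pooled. The p-values therefore measure only the spread between these libraries, which may be technical. The reporter colour and the receptor change together between Olfr160 and the other groups and cannot be told apart.

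The olfactory epithelium is a mixed tissue. Supporting (sustentacular) cells span it from base to surface, take up and detoxify odorants and shield the neurons, and Bowman's glands secrete the mucus in which the neuronal cilia lie. Respiratory epithelium borders it, with secretory and ciliated cells. These cells carry keratin filaments, tight and adherens junctions, mucins and water channels. Mature olfactory neurons are not known for the keratins, mucins and water channels. Transcripts of these are commonly read in sorted neurons as a measure of other cells in the sort. In bulk libraries, fewer cells of a type and less RNA per cell cannot be told apart.

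Libraries held 17212807 to 36230606 counts. The deepest was library 2 of Olfr1507, and raw counts given below are not scaled for depth. The labelled cell type was checked on 15 markers of mature olfactory neurons, such as Omp, Cnga2 and Adcy3, all of which had counts in each group, and together they took 3.31% to 5.23% of counts in Olfr160 libraries, 5.80% to 5.92% in Olfr73 and 8.90% to 9.07% in Olfr1507. The tagged receptor took 2.08%, 4.54% and 10.1% of all counts on Olfr genes in the Olfr160 libraries 1 to 3. It took 22.8%, 23.6% and 32.8% in the Olfr73 libraries and 94.7%, 85.1% and 91.7% in the Olfr1507 libraries. In Olfr160 and in Olfr73 most Olfr counts therefore fell on other receptors, and library 2 of Olfr1507 has the lowest share in its group. Unless TPM is named, a level is a normalised CPM value (counts scaled to library size and by TMM), while TPM is also scaled for transcript length. Group values are mean ± SD with n = 3.

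The 35 genes together took 2.17%, 1.60% and 1.06% of all counts in the Olfr160 libraries 1 to 3. In the Olfr73 libraries they took 0.403%, 0.313% and 0.217%, and in the Olfr1507 libraries 0.0182%, 0.0322% and 0.0230%. The groups did not overlap, with Olfr160 highest and Olfr1507 lowest. The groups stand in the opposite order by the tagged receptor's share, and so do the libraries within each group: in all 3 groups the library with the lowest receptor share had the highest epithelial share, and the library with the highest receptor share had the lowest. With 3 libraries in each of 3 separate clusters, no correlation was tested. Sec14l3 alone supplied more than any other gene, and without it the share was 0.676 ± 0.253% in Olfr160, 0.134 ± 0.0469% in Olfr73 and 0.0135 ± 0.00397% in Olfr1507.

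**Figure D1:**
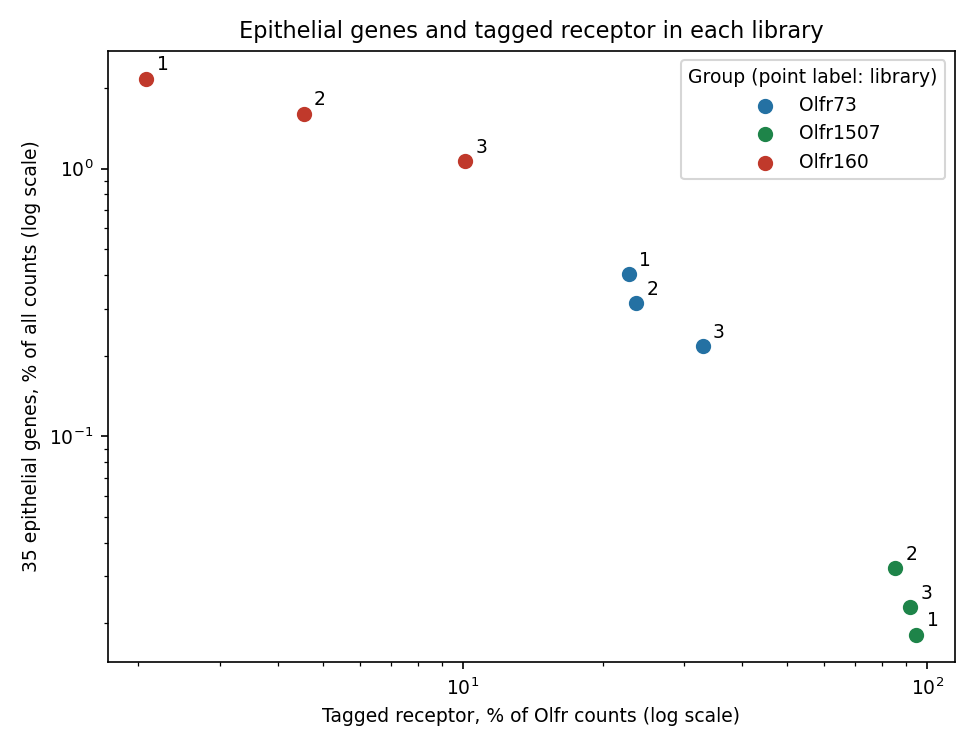
Share of all counts on the 35 epithelial genes (vertical, %, log scale) against the tagged receptor's share of Olfr counts (horizontal, %, log scale), 1 point per library, coloured by group and labelled with the library number. The epithelial share runs from 2.17% in Olfr160 library 1, where the receptor share is 2.08%, to 0.0182% in Olfr1507 library 1, where it is 94.7%.

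Single genes followed this order to different degrees. In Olfr160, 33 of the 35 genes had at least 10 counts in 1 library, and 30 of these were highest in library 1, the library with the lowest receptor share, and 28 fell at each step to library 2 and library 3. Of the 16277 tested genes with such counts, 37.2% were highest in library 1 and 22.8% fell at each step. The exceptions to a peak in library 1 were Lrp2, Gpx6 and Dmbt1. In Olfr1507, 23 of 27 genes were highest in library 2, the library with the lowest receptor share there (37.3% of all tested genes), and 18 fell at each step (19.5%). Library 2 was also the deepest of that group, with 36230606 counts beside 21982040 and 21031793 in libraries 1 and 3. Keeping genes by their raw counts in 1 library favours rare genes that are high in the deepest library. In Olfr73 the first 2 libraries had nearly the same receptor share, and 19 of 32 genes were highest in library 1 (33.8%), 9 in library 2 and 4 in library 3. These counts describe 3 libraries per group on the TMM scale, and no test was made of them.

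**Figure D2:**
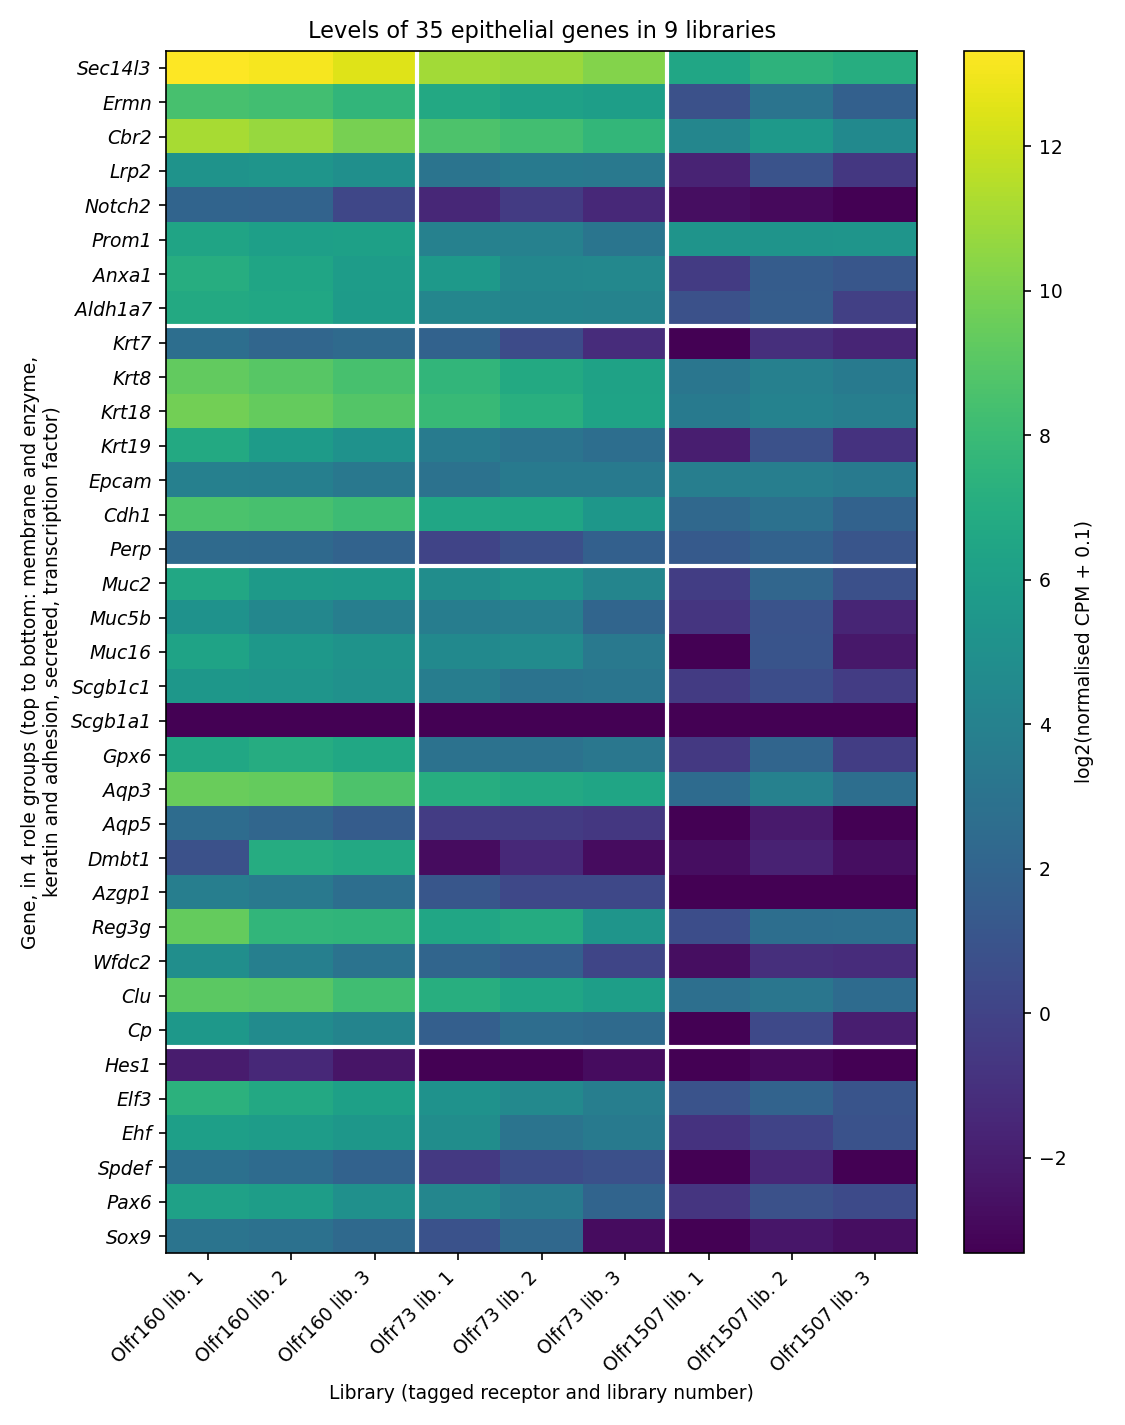
Level of each of the 35 genes (rows, in 4 groups by role) in each of the 9 libraries (columns), as log2(normalised CPM + 0.1), in colour. Most rows step down from Olfr160 to Olfr73 to Olfr1507. Prom1 and Epcam keep their colour in Olfr1507, Dmbt1 is bright in Olfr160 libraries 2 and 3 only, and Scgb1a1 is at 0 throughout.

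Of the 35 genes 33 passed the low-count filter and were tested in a fit across 16399 genes. Hes1 and Scgb1a1 did not pass. Dmbt1 passed only through the Olfr160 libraries, where it is high. Notch2, Krt7 and Sox9 also needed the Olfr160 libraries. They reached the filter level in 1, 2 and 2 Olfr73 libraries and in 0 Olfr1507 libraries. Their calls against Olfr160 stay in the counts given here but are not used as support. In Olfr1507 against Olfr160, 31 were lower in Olfr1507 (edgeR adjusted p at most 0.05, as in all calls), 0 were higher and 2, Epcam and Perp, did not pass. Of all tested genes 27.7% were lower in Olfr1507 and 20.7% higher. All 33 had values below 0, so 0 were higher at an unadjusted p of 0.05 and with DESeq2 too. The median log2 fold change was -5.76, beside -0.14 for all genes tested, and it was the same with Azgp1, which has 0 counts in Olfr1507, set to its bound. In Olfr1507 against Olfr73, 29 were lower in Olfr1507 (19.9% of all tested genes), 1, Prom1, was higher (14.5%) and Epcam, Perp and Dmbt1 did not pass. The median was -3.44, beside -0.15 for all genes. In Olfr73 against Olfr160, 23 were lower in Olfr73 (10.5%), 0 were higher (7.45%) and 10 did not pass, with a median of -2.23 beside -0.01. All 33 values were again below 0, with 28 lower and 0 higher at an unadjusted p of 0.05, and DESeq2 called 28 lower and 0 higher. Without Dmbt1, which had to differ from Olfr160 by the way it passed the filter, 30 of 32 genes were lower in Olfr1507 against Olfr160, 29 lower and 1 higher in Olfr1507 against Olfr73 and 22 lower in Olfr73 against Olfr160, with medians of -5.75, -3.44 and -2.20. Notch2, Krt7 and Sox9 remain in these counts and medians. The count of 23 by edgeR rests on few libraries: 15 genes were lower without Olfr160 library 1 and 15 without Olfr160 library 2. The 8 genes lost in some such fit, Ermn, Lrp2, Notch2, Aqp5, Wfdc2, Cp, Ehf and Pax6, had adjusted p of 0.063 to 0.155 by edgeR without library 1 and of 0.0734 to 0.143 without library 2. In Olfr1507 against Olfr73, 7 calls (Notch2, Krt7, Gpx6, Aqp5, Cp, Spdef and Sox9) were lost without Olfr1507 library 3, at adjusted p of 0.0539 to 0.109 by edgeR. In Olfr1507 against Olfr160 all 31 calls were kept without each library in turn. Under all other settings at a threshold of 0.05, tools included, 30 of 31 calls were kept in Olfr1507 against Olfr160, 20 of 30 in Olfr1507 against Olfr73 and 16 of 23 in Olfr73 against Olfr160. The 3 comparisons share their libraries pairwise, so their counts are not independent of each other.

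**Figure D3:**
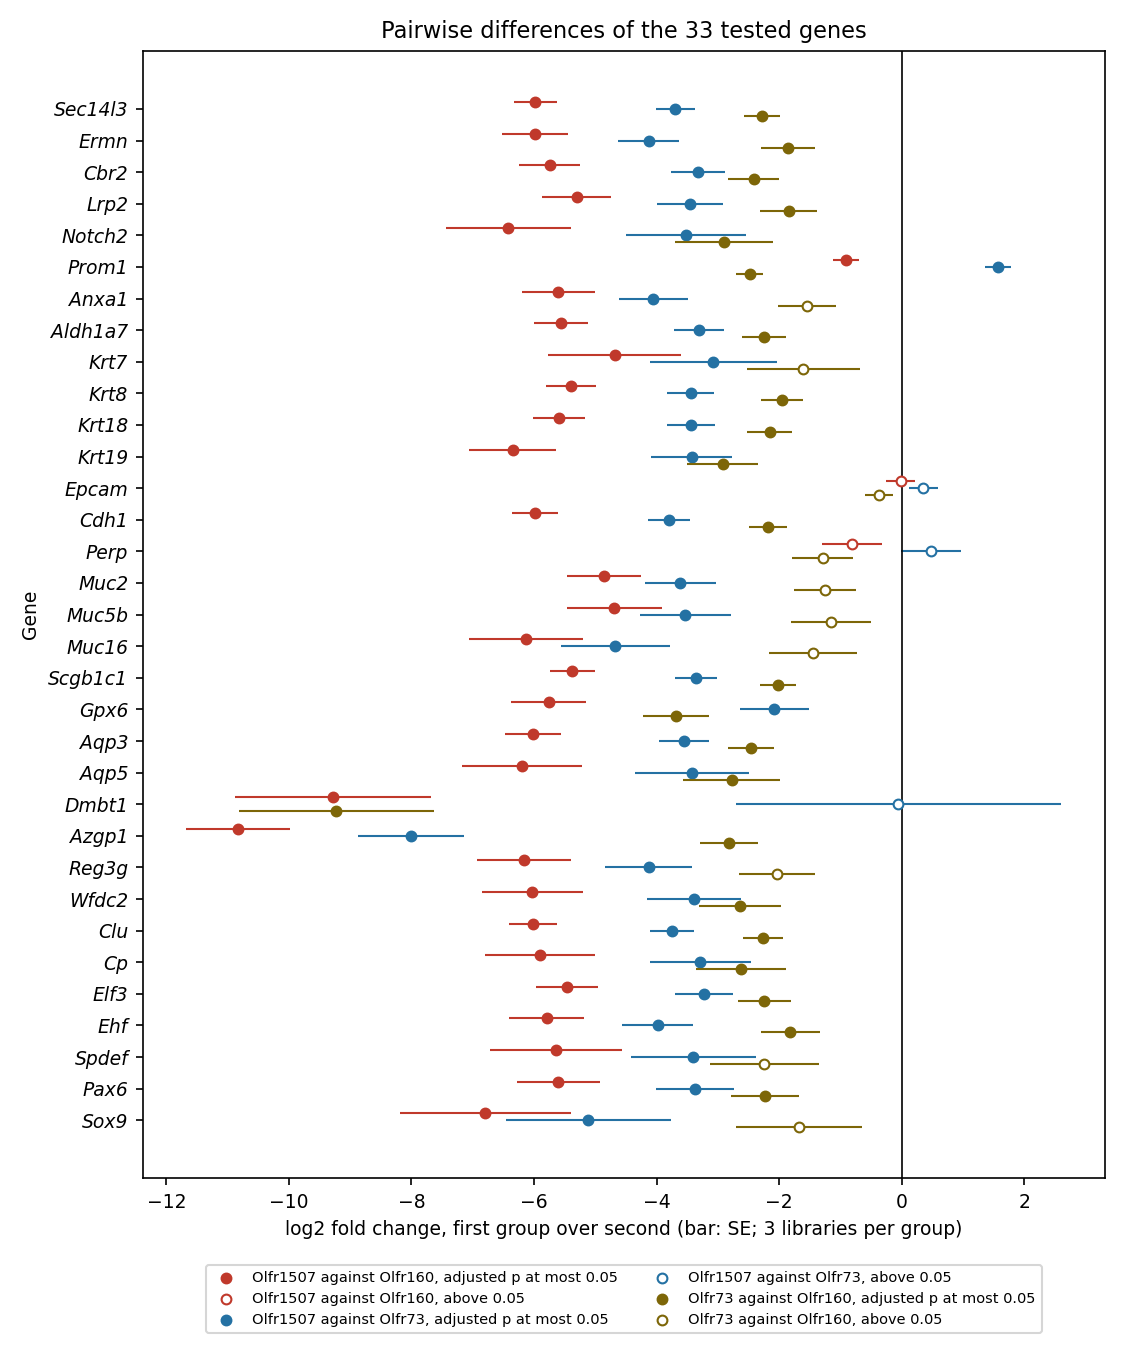
Log2 fold change of each of the 33 tested genes in the 3 comparisons (horizontal; bars are SE, 3 libraries per group), filled where the edgeR adjusted p is at most 0.05 and open where it is above. The medians are -5.76 in Olfr1507 against Olfr160, -3.44 in Olfr1507 against Olfr73 and -2.23 in Olfr73 against Olfr160. In the comparisons with Olfr1507, Prom1, Epcam and Perp lie between -0.91 and 1.57, to the right of the other genes except Dmbt1, which is at -0.06 in Olfr1507 against Olfr73 and passed the filter through Olfr160 alone.

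Libraries did not overlap for 33 of the 35 genes in Olfr1507 against Olfr160, all 33 lower in Olfr1507 (36.8% of all tested genes lie that way without overlap). In Olfr73 against Olfr160 all Olfr73 libraries were below all Olfr160 libraries for 32 genes (23.8%). Both counts include Hes1, which was not tested, whereas the shares cover tested genes only. They also include Dmbt1, Notch2, Krt7 and Sox9, which needed the Olfr160 libraries to pass the filter and are not used as support here. In Olfr1507 against Olfr73 the Olfr1507 libraries were below for 27 genes (24.9%) and above for 2, Prom1 and Epcam. The scaling moves the fold changes of all genes. The median of all genes shifts from -0.14 with TMM to -0.56 with library size alone and to -1.72 with scaling to the mature neuron markers in Olfr1507 against Olfr160, and the median of the epithelial genes shifts with it to -6.19 and -7.42. With these scalings 31 and 33 epithelial genes were lower in Olfr1507 than in Olfr160. Of all genes tested, 4540 were lower and 3399 higher with TMM, 6262 and 1343 with library size alone, and 13896 and 116 with scaling to the neuron markers.

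The 8 membrane proteins, receptors and enzymes of supporting cells were all lower in Olfr1507 than in Olfr160 (27.7% of all tested genes). The 8 include Notch2, which needed the Olfr160 libraries to pass the filter and whose calls against Olfr160 are not used as support. In Olfr73 against Olfr160, 7 of 8 were lower (10.5%), with Anxa1 just above the threshold (edgeR adjusted p = 0.0523). Anxa1 passed there under 12 alternatives, among them DESeq2 (adjusted p = 0.00524), limma-voom (0.012) and edgeR with library size alone (0.0484). Sec14l3, a lipid-binding protein of the SEC14 family (chromosome 11, 4064841 to 4077736, mm10), was the most abundant. It stood at 10229, 8557 and 5846 CPM in the Olfr160 libraries, at 2074, 1773 and 1220 in the Olfr73 libraries and at 90.6, 169.5 and 130.4 in the Olfr1507 libraries. No library of a higher group fell into the range of a lower one, and Sec14l3 remained above 90 CPM in the Olfr1507 libraries. The difference between Olfr1507 and Olfr160 was 63.0-fold (-5.98 on the log2 scale with an SE of 0.35, adjusted p = 1.12e-05 by edgeR) and that between Olfr73 and Olfr160 4.86-fold (edgeR adjusted p = 0.00286). Cbr2, a carbonyl reductase (chromosome 11, 120729489 to 120732114), stood at 2222, 1750 and 976, at 415, 305 and 206 and at 19.8, 48.7 and 23.3 in the same order. Per transcript length the level of Cbr2 in library 1 of Olfr160 was 7088 TPM, beside 7585 TPM for Sec14l3. Ermn, a cytoskeletal protein related to the ERM family, fell by 5.98 on the log2 scale from Olfr160 to Olfr1507 (SE 0.54, edgeR adjusted p = 4.41e-05), and its exons overlap those of Galnt5, which had 2920 counts beside its 25374. Aldh1a7, an aldehyde dehydrogenase whose close relative Aldh1a1 can share reads with it, changed by -5.55 and Anxa1, a phospholipid-binding annexin, by -5.60 on that scale (edgeR adjusted p = 2.68e-05 and 0.000103).

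Of the receptors, Lrp2, the endocytic receptor megalin, stood at 38.0, 41.2 and 30.8 in Olfr160, 8.50, 11.7 and 10.4 in Olfr73 and 0.216, 1.82 and 0.558 in Olfr1507. The Olfr160 libraries were alike, and library 2 of Olfr1507 was the highest of its group. Notch2, a receptor of the Notch pathway that keeps supporting cells in their state, had 84, 97 and 24 counts in Olfr160, 6, 14 and 6 in Olfr73 and 1, 1 and 0 in Olfr1507. From these sums Olfr160 was 134-fold above Olfr1507, with a 95% counting interval of 36.7 to 1115 that covers counting error only. Exons of Notch2 overlap those of Gm42820 on the same strand, which had 58, 8 and 15 counts in Olfr160 and 4 in library 2 of Olfr1507. Whether reads were shared between these genes was not tested. A usual target of the pathway, the transcription factor Hes1, had 3, 7 and 2 counts in Olfr160, 1 in all of Olfr73 and 1 in all of Olfr1507, too few to test.

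Prom1, a membrane protein of cell protrusions and of photoreceptor discs (prominin 1, chromosome 5, 43993620 to 44102032), did not follow the other genes. It stood at 86.0, 68.6 and 69.7 in Olfr160, 15.6, 15.8 and 8.71 in Olfr73 and 39.9, 39.5 and 40.1 in Olfr1507. The Olfr1507 libraries lay between the other groups and within 1 CPM of each other, and no 2 groups overlapped. Prom1 was lower in Olfr1507 than in Olfr160 (-0.91 on the log2 scale with an SE of 0.21, adjusted p = 0.00668 by edgeR). It was higher in Olfr1507 than in Olfr73 (1.57 on the log2 scale with an SE of 0.22, adjusted p = 0.000848 by edgeR). It was lower in Olfr73 than in Olfr160 by 5.58-fold (edgeR adjusted p = 0.00127). With scaling to the mature neuron markers the difference between Olfr1507 and Olfr73 was 0.65 and did not pass (edgeR adjusted p = 0.0899). Its exons overlap those of Gm16401 on the opposite strand, which had at most 19 counts in a library. Library 2 of Olfr1507, where most epithelial genes were highest, had 39.5 CPM of Prom1, close to the other libraries of that group.

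Of the 7 keratins and adhesion molecules, 5 were lower in Olfr1507 than in Olfr160 (27.7% of all tested genes) and 5 than in Olfr73 (19.9%). The 5 include Krt7, which needed the Olfr160 libraries to pass the filter and whose call against Olfr160 is not used as support. In Olfr73 against Olfr160, 4 were lower (10.5%). Krt8 and Krt18, which pair to form the filaments of simple epithelia, were close in level and in change. Krt18 (chromosome 15, 102028180 to 102032027) stood at 891, 679.6 and 469 in Olfr160, 233, 144 and 81.7 in Olfr73 and 11.7, 16.6 and 13.9 in Olfr1507. Krt8 (chromosome 15, 101996698 to 102004482), its partner and chromosomal neighbour, stood at 629.7, 503 and 356, at 199, 108 and 77.2 and at 9.23, 14.9 and 10.9. The libraries fall in the same order for both genes in each group. In Olfr1507 against Olfr160 they differed by -5.59 (SE 0.43) and -5.40 (SE 0.41) on the log2 scale, with edgeR adjusted p = 2.35e-05 and 2.24e-05. Cdh1, the epithelial adhesion molecule E-cadherin, fell 63.0-fold in the same comparison, from 338 ± 55.8 to 5.27 ± 1.95 CPM (edgeR adjusted p = 1.18e-05). Krt19, a keratin of simple and ductal epithelia, stood at 109, 56.4 and 36.1 in Olfr160 and 0.162, 1.62 and 0.447 in Olfr1507. Krt7, also of simple epithelia, was the rarest keratin, at 6.45, 4.41 and 5.34 and 0, 0.363 and 0.223. In Olfr73 Krt7 ranged from 3.65 to 0.326, overlapping Olfr1507. Its difference between Olfr1507 and Olfr73 (edgeR adjusted p = 0.0451) no longer passed under 12 alternatives, most of them edgeR fits that left out a library. Among these were edgeR without library 1 of Olfr73 (-1.96, adjusted p = 0.156), edgeR with the replicate block (0.117) and limma-voom (0.136).

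Epcam, the epithelial cell adhesion molecule (chromosome 17, 87635979 to 87651129), stood at 15.1, 14.4 and 9.87 in Olfr160, 7.75, 11.2 and 11.5 in Olfr73 and 13.8, 13.5 and 11.6 in Olfr1507. The Olfr160 and Olfr1507 libraries overlapped, and it passed in 0 of the 3 comparisons, with log2 fold changes of -0.01 (SE 0.23), 0.36 (SE 0.24) and -0.37 (SE 0.24). Its sign in Olfr1507 against Olfr160 turned when library 1 of Olfr160 was left out (0.10), and with scaling to the mature neuron markers it passed there at -1.65 (edgeR adjusted p = 0.00202). Perp, a membrane protein of desmosomes and target of p53 and p63, stood at 5.30, 5.05 and 3.91, 0.969, 1.59 and 3.26 and 2.48, 3.66 and 1.95 and passed in 0 of the 3 comparisons (edgeR adjusted p = 0.2, 0.474 and 0.103). Scaled to the mature neuron markers, Perp passed in Olfr1507 against Olfr160 (edgeR adjusted p = 0.00334) and in Olfr73 against Olfr160 (0.0313). In Olfr73 against Olfr160 it also passed with DESeq2 (adjusted p = 0.0362), limma-voom (0.0365) and both limma-trend fits (0.0288 and 0.0399), and without library 3 of Olfr73 (edgeR adjusted p = 0.0377).

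Of 12 tested secreted proteins and channels other than Dmbt1, 12 were lower in Olfr1507 than in Olfr160 (27.7% of all tested genes) and 12 than in Olfr73 (19.9%). In Olfr73 against Olfr160, 8 were lower (10.5%). Aqp3, a water and glycerol channel, and Clu, the secreted chaperone clusterin, followed the order of Sec14l3. Aqp3 stood at 735, 675 and 400.1 in Olfr160, 132, 108 and 88.9 in Olfr73 and 5.61, 15.5 and 6.31 in Olfr1507, and Clu fell from 461 ± 147 to 95.9 ± 36.4 and 7.08 ± 1.76. Both were lower in all 3 comparisons, with edgeR adjusted p = 0.00476 and 0.00375 for Olfr73 against Olfr160. Aqp5, the water channel of glands, was rare, with 122, 108 and 61 counts in Olfr160, 15, 14 and 12 in Olfr73 and 0, 4 and 0 in Olfr1507. Scgb1c1, a secretoglobin of olfactory mucus, stood at 40.0 ± 5.73, 9.86 ± 2.66 and 0.923 ± 0.459. As a short transcript it was among the highest per length, at 1892, 1850 and 1571 TPM in the Olfr160 libraries. Scgb1a1, the club cell secretoglobin of conducting airways, is listed with 0 counts in all 9 libraries, where 3 counts would be 0.0828 to 0.174 CPM.

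The 3 mucins were lower in Olfr1507 than in either other group, and between Olfr73 and Olfr160 they did not pass with edgeR. Muc2, a secreted gel-forming mucin, stood at 99.8, 54.8 and 49.0 in Olfr160, 28.6, 37.9 and 19.1 in Olfr73 and 0.702, 4.39 and 1.56 in Olfr1507. Muc5b, the gel-forming mucin of airway glands, stood at 23.5 ± 11.4, 10.5 ± 5.46 and 0.853 ± 0.873, and Muc16, a membrane mucin of airway surfaces, at 55.2 ± 23.9, 20.2 ± 8.45 and 0.676 ± 1.07. In Olfr73 against Olfr160 the log2 fold changes were -1.25, -1.16 and -1.45 (edgeR adjusted p = 0.117, 0.244 and 0.191). Other settings gave calls there for Muc2 (adjusted p = 0.0418 with DESeq2, 0.0221 with limma-voom and 0.0354 by edgeR scaled to the neuron markers) and for Muc16 (0.0226 with limma-voom). In Olfr1507 against Olfr73, Muc5b no longer passed with limma-voom (adjusted p = 0.0556). Reg3g, an antibacterial lectin, was highest in library 1 of Olfr160, at 661, 198 and 192 CPM in the 3 libraries, and stood at 92.7, 123 and 41.1 in Olfr73 and 1.46, 6.47 and 6.53 in Olfr1507. Its difference between Olfr73 and Olfr160 of -2.03 did not pass (edgeR adjusted p = 0.0519) and was -1.19 without library 1 of Olfr160. It passed under 9 alternatives, among them DESeq2 (adjusted p = 0.0225), limma-voom (0.0218) and edgeR with library size alone (0.0473). Those 9 include edgeR without library 3 of Olfr160 (-2.33, adjusted p = 0.0417) or without library 1 of Olfr1507 (-2.03, adjusted p = 0.0433). Wfdc2, a secreted protease inhibitor, and Cp, the copper-carrying ferroxidase ceruloplasmin, stood at 29.5, 14.5 and 7.87 and 46.1, 25.7 and 18.2 in Olfr160 and both were lower in the other groups, though in Olfr73 against Olfr160 both depended on single libraries, as given above. Counts of Cp can hold reads of Hps3, whose exons overlap it on the opposite strand and which had 4597 counts in all libraries beside 2358 for Cp. Hps3 had 387 to 873 counts per library, and in library 1 of Olfr1507 it had 580 beside 0 for Cp. Whether reads were shared between the 2 genes was not tested.

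Gpx6, a glutathione peroxidase of the olfactory mucosa (chromosome 13, 21312125 to 21319624), was not highest in library 1 of Olfr160. It stood at 95.6, 128 and 95.9 in Olfr160, 7.62, 7.49 and 9.69 in Olfr73 and 0.594, 4.13 and 0.726 in Olfr1507. Olfr73 was 12.9-fold below Olfr160 (-3.68 on the log2 scale with an SE of 0.54, adjusted p = 0.00416 by edgeR) and library 2 of Olfr1507 was the highest of its group but below all Olfr73 libraries. Azgp1, a zinc-binding secreted glycoprotein, had 286, 257 and 144 counts in Olfr160, 47, 24 and 24 in Olfr73 and 0 in the 3 libraries of Olfr1507. With 3 counts over the group as a floor it was at least 299.8-fold lower in Olfr1507 than in Olfr160 and at least 40.2-fold lower than in Olfr73.

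Dmbt1, a scavenger receptor-like protein of mucosal defence (chromosome 7, 131032053 to 131121630), set 1 library of Olfr160 apart from the other 2. It had 34, 3058 and 2359 counts in the Olfr160 libraries 1 to 3, or 1.64, 124 and 105 CPM, so that library 1, where nearly all other epithelial genes were highest, was 75.5-fold below library 2. In Olfr73 it had 1, 6 and 1 counts and in Olfr1507 1, 6 and 1. Because Dmbt1 passed the low-count filter through the Olfr160 libraries alone, its fitted differences from Olfr160 are not used as support. Its calls there ended with limma-voom (adjusted p = 0.395 and 0.444). Of the 6 Dmbt1 transcripts in the authors' table only 1 was found in the GENCODE M21 annotation, while all transcripts of the other 34 genes were found.

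All 5 transcription factors that could be tested were lower in Olfr1507 than in Olfr160 (27.7% of all tested genes) and than in Olfr73 (19.9%). The 5 include Sox9, which needed the Olfr160 libraries to pass the filter and whose call against Olfr160 is not used as support. In Olfr73 against Olfr160, 3 of 5 were lower (10.5%). With limma-voom Pax6 (adjusted p = 0.0752) and Sox9 (0.238) no longer passed in Olfr1507 against Olfr73, nor did Sox9 with limma-trend (0.131 and 0.077). Elf3 and Ehf, epithelial ETS-domain factors, stood at 167, 106 and 70.5 and 67.3, 59.5 and 43.8 in Olfr160 and at 1.78, 3.86 and 1.90 and 0.432, 0.924 and 1.73 in Olfr1507. In Olfr73 Elf3 stood at 35.8, 23.0 and 13.7 and Ehf at 28.9, 8.24 and 11.2, with library 1 highest for both. Pax6, a paired-box factor of supporting and basal cells, was -5.60 on the log2 scale in Olfr1507 against Olfr160 (SE 0.68, edgeR adjusted p = 0.000216) and -2.23 in Olfr73 against Olfr160 (SE 0.56, edgeR adjusted p = 0.0263). Spdef, an ETS factor of secretory cells, had 142, 140 and 84 counts in Olfr160, 13, 28 and 33 in Olfr73 and 0, 8 and 0 in Olfr1507. Sox9, a factor of gland cells, had 176, 182 and 112 counts in Olfr160 and 0, 3 and 1 in Olfr1507. In Olfr73 Sox9 had 39, 101 and 1 counts, so that library 3 lies at the level of Olfr1507, and Spdef and Sox9 did not pass in Olfr73 against Olfr160 (edgeR adjusted p = 0.11 and 0.282). In that comparison Spdef passed with DESeq2 (adjusted p = 0.00935) and limma-voom (0.0123), and Sox9 with limma-voom (0.0461). Without library 2 of Olfr1507 Spdef passed there (-2.24, edgeR adjusted p = 0.0388), and without library 1 of Olfr160 Pax6 did not (-1.98, adjusted p = 0.0835).

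Whether the genes keep a fixed proportion to each other was read from counts per 1000 Sec14l3 counts in the same library, a ratio that no scaling between libraries can move. Krt18 stood at 87.1, 79.4 and 80.2 in the Olfr160 libraries, 112, 81.1 and 67.0 in Olfr73 and 129, 98.0 and 107 in Olfr1507. All Olfr1507 libraries lay above all Olfr160 libraries for Krt18 and for Krt8, with group means 1.35-fold and 1.51-fold above those of Olfr160. Aqp3 stood at 71.9, 78.9 and 68.4, at 63.7, 60.8 and 72.9 and at 61.9, 91.4 and 48.4. Over all 9 libraries Clu, Cbr2, Krt8, Cdh1, Aqp3, Krt18 and Scgb1c1 each stayed within a range of 1.71 to 1.93-fold, while Sec14l3 itself ranged from 90.6 to 10229 CPM. These were named because their ranges were the narrowest. The remaining genes ranged from 2.03-fold (Elf3) over 4.32-fold (Reg3g) to 845-fold (Dmbt1), or had 0 counts in a library, such as Muc16. Of the 33 genes with counts other than Sec14l3, the group means of this ratio lay within 2-fold of each other for 27 in Olfr73 and Olfr160, for 25 in Olfr1507 and Olfr160 and for 24 in Olfr73 and Olfr1507. Group means do not show the spread between libraries of a group.

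The other 11 genes lay outside 2-fold in at least 1 pair of groups: Prom1, Epcam, Perp, Muc2, Muc5b, Muc16, Gpx6, Dmbt1, Azgp1, Hes1 and Sox9. Several of them, such as Hes1, Azgp1 and Sox9, had few or 0 counts in a group. Prom1 had 8.40, 8.01 and 11.9 counts per 1000 Sec14l3 counts in Olfr160 and 7.52, 8.93 and 7.14 in Olfr73, where the libraries overlapped, but 441, 233 and 308 in Olfr1507. Epcam had 1.48, 1.68 and 1.69 in Olfr160, 3.74, 6.34 and 9.40 in Olfr73 and 152, 79.7 and 89.0 in Olfr1507, without overlap between any groups. Perp stood at 0.593 ± 0.0758 in Olfr160 and 21.3 ± 6.21 in Olfr1507. Gpx6 was lower in Olfr73, at 3.67, 4.23 and 7.95, than in Olfr160, at 9.35, 14.9 and 16.4, and Muc2 was higher in Olfr73, at 13.8, 21.4 and 15.7, than in Olfr160, at 9.75, 6.40 and 8.38. Dmbt1 ranged from 0.0212 to 17.9. For 3 libraries against 3 the smallest exact two-sided permutation p is 0.1, so these differences in proportion were not tested.

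**Figure D4:**
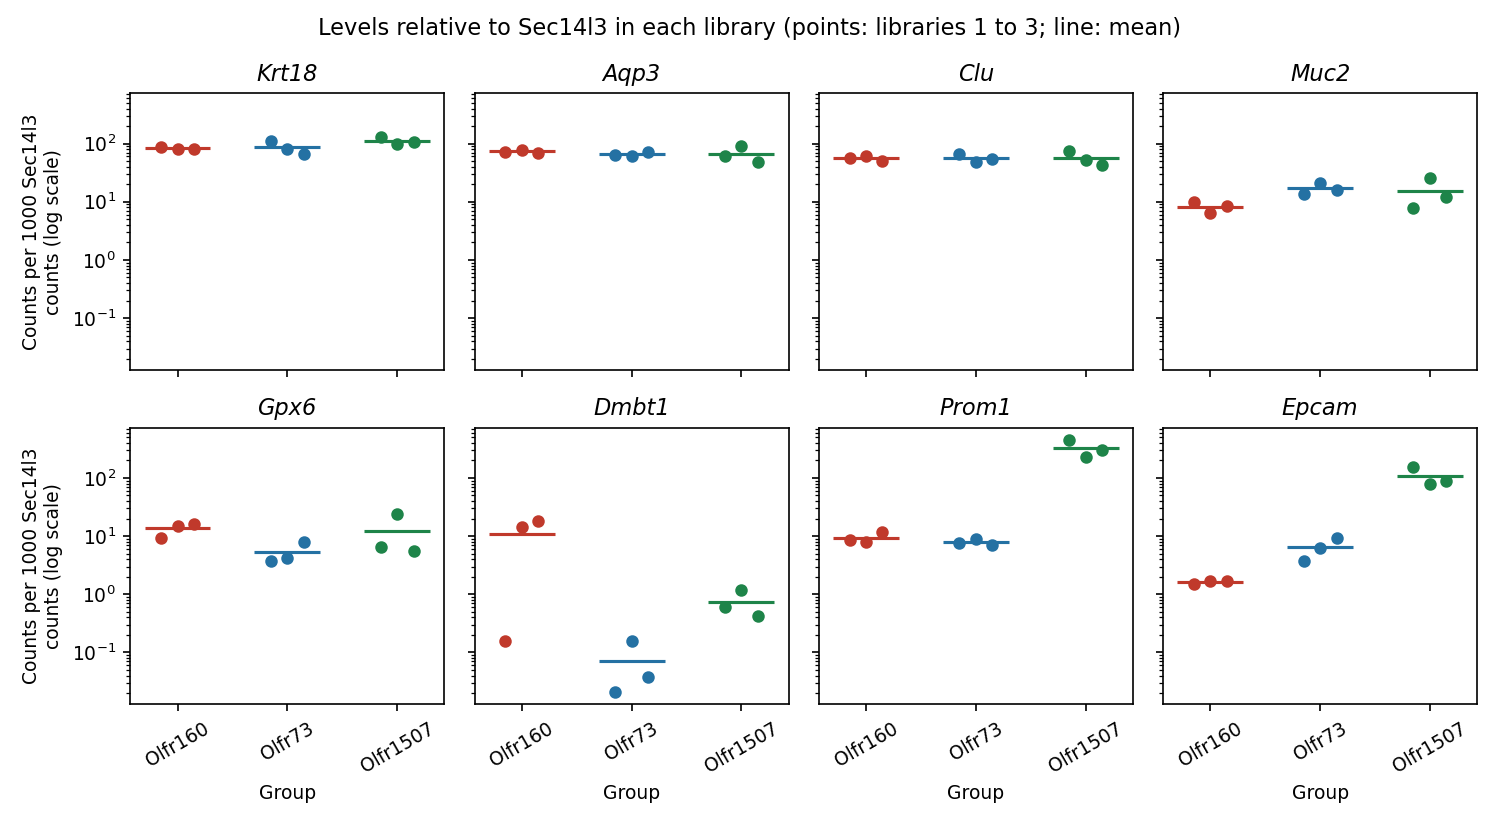
Counts per 1000 Sec14l3 counts (vertical, log scale) of 8 genes in each group, with a point per library (1 to 3 from left to right) and a line at the mean. Aqp3 and Clu stay level across the groups, and the mean of Krt18 is 1.35-fold higher in Olfr1507 than in Olfr160. Gpx6 dips in Olfr73, and Dmbt1 is low in library 1 of Olfr160. Prom1 and Epcam stand highest in Olfr1507, at 233 to 441 and 79.7 to 152.

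Promoter sequences are shown for 6 of the genes, because Sec14l3, Krt8, Krt18 and Reg3g fell steeply from Olfr160 to Olfr1507 and Prom1 and Epcam did not. RefSeq windows on GRCm38.p6, from 250 bases before to 50 after a gene's start, matched 25 of the 35 genes with 29 windows. Capitals mark 3 motifs in either orientation: the core letters CCGGAA bound by ETS factors, GTGGGAA of the Notch effector RBPJ, and the TATA box letters TATAAA. The windows lie at chr11:4064603-4064902 (plus strand) for Sec14l3, chr15:102004293-102004592 (minus) for Krt8, chr15:102027966-102028265 (plus) for Krt18, chr6:78468825-78469124 (minus) for Reg3g, chr5:44101687-44101986 (minus) for the first of 2 Prom1 windows and chr17:87635729-87636028 (plus) for Epcam.
Sec14l3: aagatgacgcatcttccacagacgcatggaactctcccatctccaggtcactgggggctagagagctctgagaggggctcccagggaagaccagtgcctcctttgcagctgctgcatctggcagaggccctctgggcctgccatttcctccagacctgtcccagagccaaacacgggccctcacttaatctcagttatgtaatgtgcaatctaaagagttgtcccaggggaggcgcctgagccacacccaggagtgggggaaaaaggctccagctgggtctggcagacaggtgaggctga
Krt8: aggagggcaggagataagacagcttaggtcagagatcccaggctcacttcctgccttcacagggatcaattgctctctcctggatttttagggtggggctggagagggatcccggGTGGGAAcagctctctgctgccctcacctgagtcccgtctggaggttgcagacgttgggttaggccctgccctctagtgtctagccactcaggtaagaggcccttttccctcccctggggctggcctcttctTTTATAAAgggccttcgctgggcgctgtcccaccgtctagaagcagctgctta
Krt18: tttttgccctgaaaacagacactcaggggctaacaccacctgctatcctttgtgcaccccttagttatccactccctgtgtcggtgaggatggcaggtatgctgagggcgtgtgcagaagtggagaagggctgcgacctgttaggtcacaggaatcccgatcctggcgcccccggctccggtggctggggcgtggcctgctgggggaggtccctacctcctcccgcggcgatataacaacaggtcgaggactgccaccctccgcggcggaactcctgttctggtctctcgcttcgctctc
Reg3g: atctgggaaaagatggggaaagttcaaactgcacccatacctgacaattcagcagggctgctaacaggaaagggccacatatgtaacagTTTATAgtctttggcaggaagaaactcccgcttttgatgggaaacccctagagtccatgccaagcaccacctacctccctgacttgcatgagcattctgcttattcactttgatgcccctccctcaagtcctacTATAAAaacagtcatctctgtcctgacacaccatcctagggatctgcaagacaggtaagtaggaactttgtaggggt
Prom1: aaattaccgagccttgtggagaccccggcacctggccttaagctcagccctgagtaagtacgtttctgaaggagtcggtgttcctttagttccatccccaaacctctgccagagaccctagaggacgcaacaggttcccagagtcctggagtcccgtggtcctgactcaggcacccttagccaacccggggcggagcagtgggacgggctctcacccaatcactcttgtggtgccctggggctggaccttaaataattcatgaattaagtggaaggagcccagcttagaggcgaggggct
Epcam: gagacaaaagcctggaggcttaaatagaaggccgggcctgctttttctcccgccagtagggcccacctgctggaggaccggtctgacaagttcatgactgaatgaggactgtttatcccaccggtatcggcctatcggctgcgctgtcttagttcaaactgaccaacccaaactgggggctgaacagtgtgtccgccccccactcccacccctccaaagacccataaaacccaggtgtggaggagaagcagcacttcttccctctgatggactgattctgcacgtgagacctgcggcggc

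CCGGAA was found in 2 of the 29 windows (6.90%), those of Lrp2 and Anxa1, beside 14.9% of all 32851 windows. GTGGGAA was found in 3 windows (10.3%), of Krt8 and Wfdc2, beside 6.38%. The 2 Wfdc2 windows start at 164562465 and 164562466 and hold the same site, so 2 of 25 genes had this motif. TATAAA was found in 7 windows (24.1%) of 7 genes, among them Krt8, Reg3g, Muc2 and Aqp3, beside 13.6%. In Reg3g a TATA match ends 21 bases before the annotated start, and TTTATA, its reverse complement, occurs further upstream. In Krt8 the match lies across the annotated start, at positions 250 to 255 of the window, and overlaps TTTATA. Of the printed windows those of Sec14l3, Krt18, Prom1 and Epcam held none of the 3 motifs. A match describes letters in the window and is not a bound site.

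The same comparison, Olfr1507 against Olfr160, was read on lists of related genes and of markers of other cells, beside the 27.7% of all tested genes that were lower and the 20.7% that were higher. Which list genes passed the low-count filter through the Olfr160 libraries alone was not checked, so these counts are not used as support. Of 18 tested other supporting cell genes, 18 were lower in Olfr1507 than in Olfr160, with a median of -5.76. In Olfr73 against Olfr160, 14 were lower (10.5% of all tested genes). Examples are Dab2, the endocytic adaptor that works with megalin, at 4.03 ± 0.657 CPM in Olfr1507 and 318 ± 69.1 in Olfr160, and Aldh1a1 at 0.731 ± 0.179 and 57.4 ± 22.5. Among other junction and epithelial identity genes 19 of 32 were lower and 2 higher, with a median of -2.09, and Cldn7, a claudin, was among the lower ones. Among other secretory and mucosal genes 17 of 21 were lower and 2 higher, and Kcnq1, a potassium channel of epithelia, was one of the higher ones, at 177 ± 10.6 in Olfr1507 and 27.5 ± 4.26 in Olfr160. Among other Notch pathway genes 8 of 25 were lower and 5 higher, close to the shares over all genes. That split depended on the scaling, at 12 lower and 2 higher with library size alone and 21 lower and 0 higher with scaling to the mature neuron markers.

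Markers of other cells differed between the groups too, and their part in the results above was not tested. Calls cover only genes that passed the low-count filter, 12 of 15 immune and 10 of 12 glia, stroma and vessel markers. A gene can pass it through high Olfr160 levels alone, which was not checked for these lists. Horizontal basal cell markers took 0.0202% to 0.0540% of counts in Olfr160, 0.00198% to 0.00967% in Olfr73 and 0.000168% to 0.000745% in Olfr1507, and 8 of 8 were lower in Olfr1507 than in Olfr160, Krt5 and Krt14 among them. Immune cell markers took 0.0263% to 0.0880%, 0.00832% to 0.0120% and 0.000205% to 0.000523%, with 12 of 12 lower and Csf1r, C1qc, Itgam and Cd79a at 0 counts in Olfr1507. Markers of glia, stroma and vessels took 0.0225% to 0.0466%, 0.00532% to 0.0103% and 0.000600% to 0.000773%, with 10 of 10 lower and Sox10 at 0 in Olfr1507. Microvillar and brush cell markers took 0.0145% to 0.0289%, 0.00332% to 0.00741% and 0.00503% to 0.00669%, with 7 of 9 lower and Pou2f3 higher. Genes listed as markers of multiciliated respiratory cells took 0.0982% to 0.127%, 0.167% to 0.192% and 0.192% to 0.201%, with 7 of 12 higher and 3 lower in Olfr1507 with TMM, but 0 higher and 8 lower with scaling to the mature neuron markers. Their mean share was largest in Olfr1507, like that of the mature neuron markers and unlike the 4 lists before. Whether their counts come from respiratory cells was not tested, and they are not read here as a measure of such cells. The 15 mature neuron markers were higher in Olfr1507 for 15 of 15, or 13 with library size alone, and 2 with 4 lower when the libraries were scaled to this list itself.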

How the data were processed

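Polyadenylated RNA was sequenced in 3 libraries for each of 3 tagged receptor alleles, with 17212807 to 36230606 counts per library. Per the labels' processing notes, the authors used STAR 2.6.1 and RSEM 1.3.1 on mm10; DESeq2 is named there without a version. No source used here gives the annotation release or the strand setting. The deposited tables hold RSEM expected counts, of which 4.06% to 5.54% were not whole, and TPM values as the authors' RSEM output gave them. The expected counts were rounded, and genes were tested with edgeR 4.0.16 (robust quasi-likelihood F test, TMM, filterByExpr with a minimum count of 10, 1 mean per group over all 9 libraries) under R 4.3.3, with Benjamini-Hochberg adjustment over 16399 of 55291 genes and a threshold of 0.05. The script was checked on simulated data. SE is the log2 fold change divided by the root of F.

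Alternatives were DESeq2 1.42.0, limma 3.58.1 (voom, and trend on log2(TPM + 1) and log2(TPM + 0.1)), other scalings and filters, Olfr genes left out, only the 6 libraries compared, a replicate block, an adjusted p of 0.01 and leaving out each library. The M72, MOR174 and MOR28 synonyms of RefSeq tie the tagged receptors to Olfr160, Olfr73 and Olfr1507. Replicate pairs differed beyond sampling noise (chi-square per degree of freedom 20.0 to 95.1). Coordinates are from GENCODE M21. All 35 genes are accounted for in the text; among related genes up to 2 per list with the lowest adjusted p in Olfr1507 against Olfr160, and up to 2 in Olfr73 against Olfr160, were named. Markers given as examples of the neuron list or as having 0 counts, and overlapping partners, were named after their values were seen. The genes and lists were chosen with earlier results of these data known. Exons of 8 of the 35 genes overlap another gene, for 7 of them on the opposite strand.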

Additional observations from a re-analysis of the deposited data

How the results depend on the processing

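Of the values for single genes under all alternatives, 713 in Olfr1507 against Olfr160 kept their direction and side of the threshold, 1 no longer passed, 2 newly passed and 4 changed sign. In Olfr1507 against Olfr73 these were 663, 47, 0 and 6, and in Olfr73 against Olfr160 619, 59, 42 and 0. With scaling to the mature neuron markers all genes called numbered 14012 in Olfr1507 against Olfr160 (7939 with TMM), 9991 in Olfr1507 against Olfr73 (5640) and 4550 in Olfr73 against Olfr160 (2936). Of these, 116, 334 and 110 were higher in the first group, beside 3399, 2379 and 1222 with TMM. In the same scaling 0 epithelial genes were higher in Olfr1507 than in Olfr73, and Epcam (-0.57) and Perp (-0.44) changed sign there. Library size alone gave 1047 higher and 4706 lower in Olfr1507 against Olfr73 and 857 and 1942 in Olfr73 against Olfr160. At an adjusted p of 0.01 all genes called numbered 4969, 2837 and 769, and 12 epithelial genes were lower in Olfr73 than in Olfr160. limma-voom called 4453 genes in Olfr73 against Olfr160, with Epcam at 0.0153 in Olfr1507 against Olfr160 and Dmbt1 at 0.12 in Olfr1507 against Olfr73.

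Leaving out each library gave 3657 to 5546 genes called in Olfr1507 against Olfr73 and 976 to 3062 in Olfr73 against Olfr160, where 15 to 25 epithelial genes were lower. Over these fits Epcam ranged from -0.18 to 0.10 in Olfr1507 against Olfr160, above 0 without Olfr160 library 1 or 2 or Olfr1507 library 3, and Dmbt1 from -1.07 to 1.29 in Olfr1507 against Olfr73. Without Sec14l3 the epithelial share was 0.676% in Olfr160, 0.134% in Olfr73 and 0.0135% in Olfr1507, and as a share of TPM it was 0.0346% in Olfr1507. The cause of these changes was not tested, beyond the fewer samples or genes in a fit.

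Replicate numbers did not pair the libraries: same-numbered deviations correlated at -0.225 to 0.141, with 2 of 9 pairs above 0.1, and 1 library correlated best with its own number in both other groups. With the replicate block 31, 28 and 20 epithelial genes were lower in the 3 comparisons, in the order above, and 7398, 4804 and 2485 of all genes were called. Depth limits the genes near 3 counts, or 0.0828 to 0.174 CPM, such as Hes1, Scgb1a1, Notch2 and Krt7 in Olfr1507.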
